A study of Mus with 48 samples.

Results

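The transcripts of 35 genes that defend cells against reactive oxygen and bind metals were examined in 4 brain regions of mice treated with MPTP. The genes were taken by symbol from the deposited expression table, and all 35 were among its 23366 gene names. They comprised superoxide dismutases and catalase (4 genes), glutathione peroxidases (3), the synthesis and recycling of glutathione with its cystine transporter (5), the control and targets of the transcription factor NRF2 (5), the thioredoxin system (4), peroxiredoxins (6), metallothioneins (3), glutathione transferases (3), and methionine sulfoxide repair and mitochondrial uncoupling (2). All 12 mice were female C57BL/6J mice bought at 8 weeks of age, and no genotype differed between groups. The saline group (n = 4) was the control. The MPTP group (n = 4) had received 10 subcutaneous injections of MPTP at 25 mg/kg together with probenecid, a drug that slows the clearance of MPTP, and the MPTP + EX group (n = 4) had received the same injections and had then run on a treadmill for 12 weeks. In the paper, tissue of all groups was taken after the final behavioural test, which followed the 12 weeks of exercise. MPTP and saline mice were thus compared well after the last injection. RNA was sequenced from micro-dissected substantia nigra (SN), striatum, cortex and cerebellum of each mouse, and levels were given as FPKM, in which fragment counts are divided by transcript length and by sequencing depth. Mice keep the names that open the column headings: saline mice are S1, S2, S3 and S4, MPTP mice are M6, M16, M21 and M23, and exercised mice are E26, E27, E28 and E29.

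MPTP is converted, mainly in astrocytes, to a toxin that dopaminergic neurons take up and that blocks complex I of the respiratory chain, so that superoxide is released. Superoxide dismutases turn superoxide into hydrogen peroxide, and catalase, glutathione peroxidases and peroxiredoxins remove the peroxide. Glutathione peroxidases draw on reduced glutathione, which glutathione reductase regenerates, and most peroxiredoxins draw on thioredoxin, which thioredoxin reductases regenerate. NRF2, held in the cytoplasm and marked for degradation by KEAP1, switches on many of these genes when cells are oxidised. Metallothioneins are small cysteine-rich proteins that bind zinc and copper. Mt1 and Mt2 are made largely in astrocytes and respond to metals, glucocorticoids and oxidants, whereas Mt3 is a brain form that responds little to these.

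Of the 48 libraries, 47 had between 12809 and 13593 genes above 1 FPKM and a median correlation of 0.990 to 0.995 with the other libraries of their region. The table held no read counts. Depth was estimated from genes at 0 in most libraries, by the commonest ratio of their FPKM to that in the SN library of S1. Only 8 to 39 genes of a library shared this ratio. On this rough estimate, the deepest library of a region was 1.28 to 1.57 times as deep as the shallowest. The dopaminergic markers checked the MPTP label in the SN. Th, the rate-limiting enzyme of dopamine synthesis, was 135 to 294 FPKM with saline, 31.4 to 40.1 with MPTP and 19.2 to 45.2 with MPTP + EX, and 13 of 13 dopaminergic markers fell with MPTP (limma, adjusted p under 0.05). From the RNA of such tissue, fewer cells of a type and less RNA per cell cannot be told apart. By immunofluorescence in a separate cohort, the paper reported fewer TH-positive neurons in the SN of sedentary and exercised MPTP mice.

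The striatum library of mouse E29 stood apart and is described here on its own. Its median correlation with its region was 0.896, it held 11595 genes above 1 FPKM, and the nuclear RNA Malat1 stood at 17.5 FPKM where the other 47 libraries had 148 to 363. Against the range of the other 11 striatum libraries, 22 of the 35 genes were above, 8 were below and 5 (Keap1, Hmox1, Nqo1, Srxn1 and Prdx3) were within, whereas of all genes 29.2% were above and 57.0% below. The median ratio to the mean of the other 3 MPTP + EX mice was 2.19 for the 35 genes and 0.655 for all genes. The largest ratios were those of Mt3, Gpx4 and Mt1, in that order. Mt3 was 5092 FPKM against a mean of 737, Gpx4, the peroxidase of membrane lipids, was 1595 against 270.1, and Mt1 was 1947 against 402. Of the 5 glutathione synthesis and recycling genes, 4 were below the range: Gclc, the catalytic subunit of the rate-limiting enzyme, was 4.30 against 27.8 FPKM, its partner Gclm was 3.11 against 16.3, the cystine transporter Slc7a11 was 0.775 against 3.94 and glutathione reductase, Gsr, was 8.48 against 11.9. The fifth, glutathione synthetase (Gss), was above it at 20.7 against 9.47. The other genes below the range were Sod2, Cat, Nfe2l2 and Txnrd1. This library was left out of the fits that follow, so that the striatum MPTP + EX group had 3 mice, and values with all 12 striatum libraries are given for Txn1, Srxn1, Prdx2, Sod3 and Gstp1 beside their striatal values. Including it turned the sign of the log2 fold change for 12 of the 35 genes in MPTP + EX against MPTP and for 14 in MPTP + EX against saline, and none of the 35 passed adjustment in either (limma, lowest adjusted p 0.55 and 0.635).

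**Figure D1:**
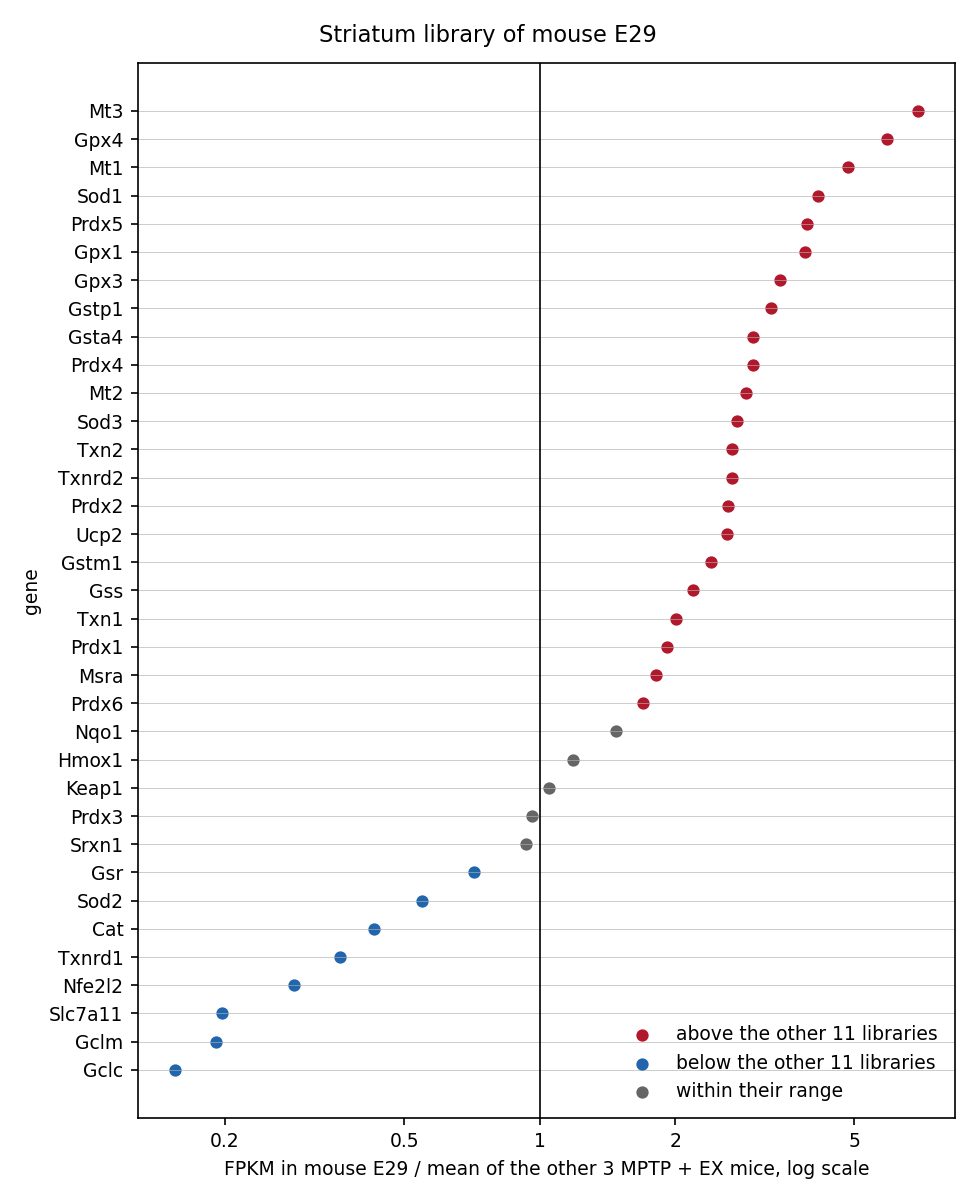
FPKM of each gene in the striatum library of mouse E29 divided by the mean of the other 3 MPTP + EX striatum libraries (log axis). Red points lie above the range of the other 11 striatum libraries (22 genes), blue points below it (8 genes) and grey points within it (5 genes), and the ratios run from 0.155 for Gclc to 6.91 for Mt3.

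In saline mice most of these genes were expressed more strongly in the SN than elsewhere. Of the 35 genes, 24 were higher and 3 (Gclc, Gsr and Msra) lower in the SN than in the striatum (limma, adjusted p under 0.05, n = 4 mice per region), where 36.7% of all genes were higher and 20.9% lower. Against the cortex 25 were higher and 1 (Msra) lower, with 38.8% and 20.7% of all genes, and against the cerebellum 22 were higher and 3 (Gss, Gsr and Msra) lower, with 35.6% and 30.7% of all genes. The median log2 difference of the 35 genes between the SN and the striatum, cortex and cerebellum was 0.37, 0.42 and 0.37, and that of all genes was 0.09, 0.11 and 0.04. The SN exceeded each of the other 3 regions for 15 genes, among them the superoxide dismutases Sod1 and Sod2, catalase, 5 of the 6 peroxiredoxins (all but Prdx6), Gpx3, Gpx4, Txn1, Srxn1 and Nfe2l2. The share of all genes above all 3 other regions was not counted. The remaining contrasts were smaller. The striatum had 10 genes above and 2 (Gsta4 and Txnrd2) below the cortex (19.5% and 15.9% of all genes), and 10 above and 6 below the cerebellum (28.3% and 36.6%), while the cortex had 8 above and 14 below the cerebellum (27% and 39.7%). Markers of glia differed between the regions as well. The summed level of 14 astrocyte markers was 2281 to 2650 FPKM in the saline SN, 2109 to 2374 in the cerebellum, 1424 to 1882 in the cortex and 1318 to 1463 in the striatum, so that the first 2 of these regions overlapped. That of 12 oligodendrocyte markers was 5429 to 6867 FPKM in the SN, above every library of the other regions (3697 to 4257 for striatum, 1842 to 2172 for cerebellum, 1796 to 2254 for cortex). The 14 microglia markers also summed highest in the SN, to 461 to 623 FPKM, against 392 to 436 (striatum), 315 to 378 (cortex) and 111 to 152 (cerebellum). Their part in these levels was not tested.

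The genes with the largest differences between regions were Gpx3, Gsta4 and Ucp2. Gpx3, the secreted glutathione peroxidase, was 25.6 ± 3.48 FPKM in the SN (SD, n = 4), against 5.25 ± 0.562 in the striatum, 5.0 ± 0.782 in the cerebellum and 4.63 ± 0.743 in the cortex, and the last 3 did not differ beyond their spread. Gsta4, a glutathione transferase that detoxifies the lipid aldehyde 4-hydroxynonenal, was 68.1 ± 4.54 FPKM in the SN, 33.7 ± 4.14 in the cortex, 33.5 ± 2.25 in the cerebellum and 25.6 ± 3.06 in the striatum. Ucp2, an uncoupling protein of the inner mitochondrial membrane, was 12.9 ± 3.29 FPKM in the SN and 10.1 ± 0.908 in the cerebellum, which did not differ beyond their spread (adjusted p = 0.104, limma), 7.68 ± 1.01 in the striatum, which did not differ from the cerebellum either (adjusted p = 0.0565), and 5.33 ± 1.27 in the cortex. The most abundant transcript of the 35 in every region was Mt3, with means of 846 FPKM (SN), 748 (striatum), 713 (cortex) and 527 (cerebellum). Mt1 was next in each region (508, 375, 325 and 419 FPKM in that order), followed by Prdx5, a peroxiredoxin of mitochondria and peroxisomes (454, 309, 304 and 349 FPKM). The cerebellum stood below all 3 other regions for 7 genes (Sod1, Gpx1, Gpx4, Keap1, Prdx6, Mt3 and Gstp1) and above them for Gss, which completes glutathione, and Msra, which repairs oxidised methionine. Gclc was highest in the striatum and lowest in the cortex, and the cortex was also below all other regions for Nqo1, Txnrd1, Prdx3 and Ucp2. The shares of all genes in these orders of regions were not counted. The least abundant gene in the SN was Hmox1, heme oxygenase 1, at 2.92 FPKM.

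**Figure D2:**
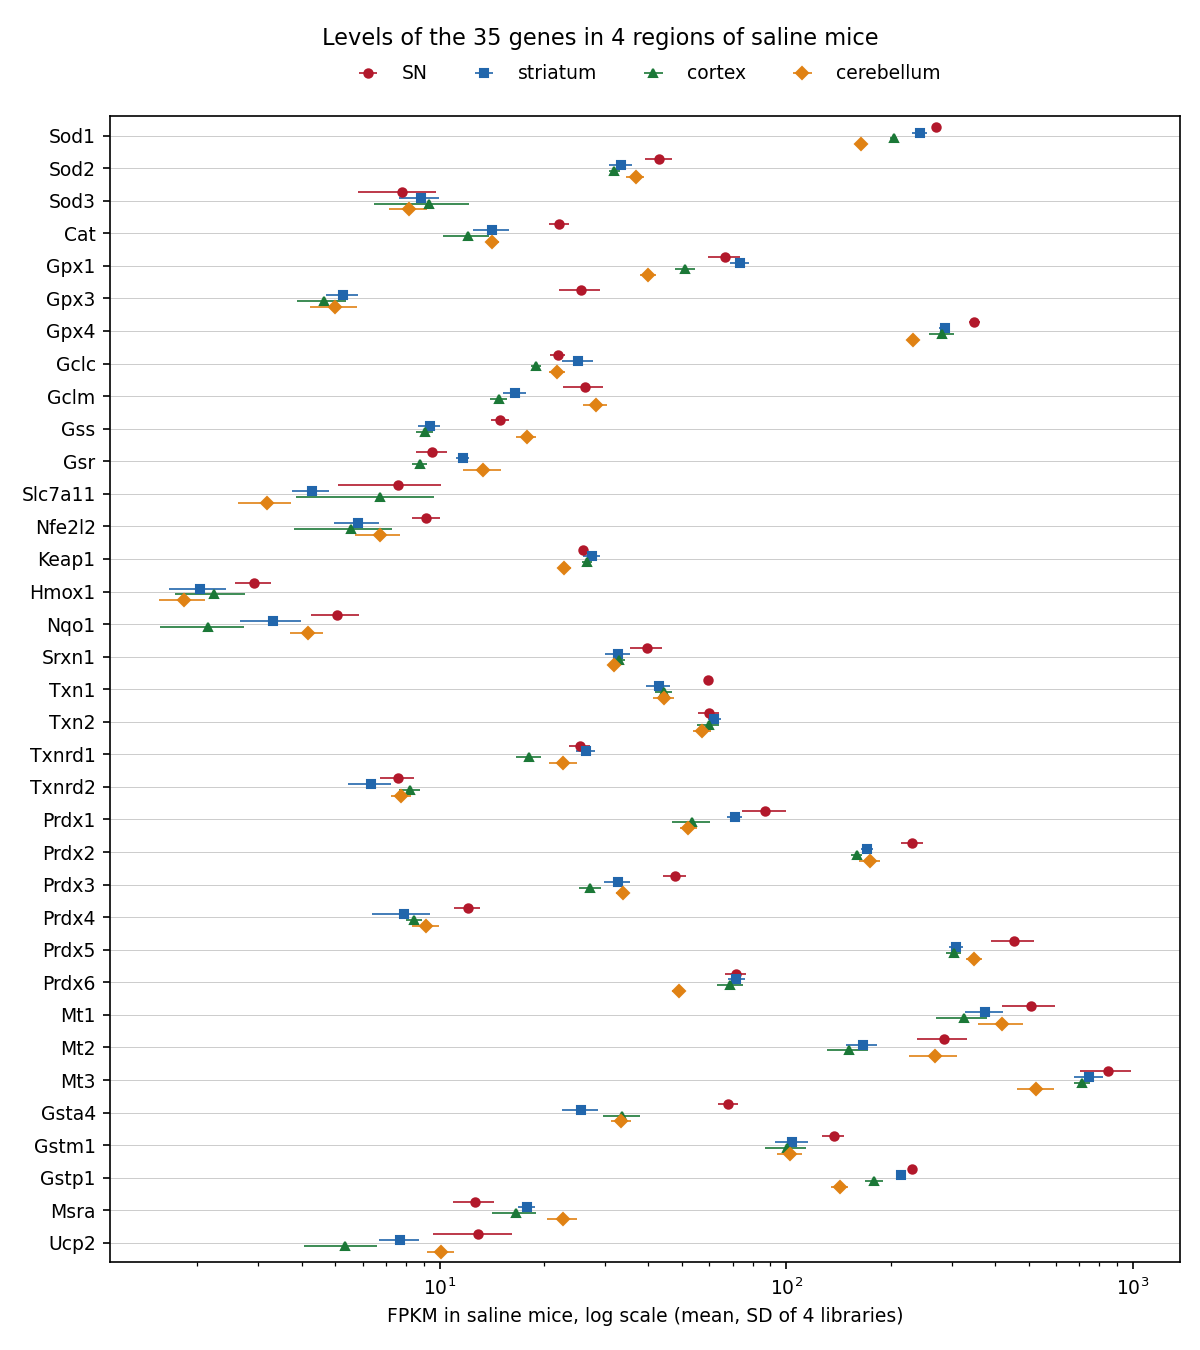
Mean FPKM of the 35 genes in saline mice (log axis), with SD over 4 libraries, for the SN (red circles), striatum (blue squares), cortex (green triangles) and cerebellum (orange diamonds). The SN is the highest region for 23 of the 35 genes (the share of all genes was not counted), and Mt3, Mt1 and Prdx5 are the most abundant.

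None of the 35 genes passed an adjusted p under 0.05 for MPTP or for exercise (limma on log2(FPKM + 1), adjusted over all genes of the region, 3 comparisons in each of 4 regions). The share of all genes that passed this threshold was 0.638% for MPTP against saline in the SN and 0.0227% in the striatum, and no gene passed in the cortex or cerebellum. At an unadjusted p under 0.05, the counts were as follows. With MPTP in the SN, 6 genes were higher (Mt1, Mt2, Prdx6, Hmox1, Nfe2l2 and Prdx4) and 2 lower (Gpx3 and Keap1), 8 of 35 in all, where 5.69% of all genes were higher and 5.61% lower (11.3% together). The median log2 fold change of the 35 genes was 0.06, with 26 above 0, and that of all genes was 0.02, with 56.8% above 0. The groups did not overlap for 5 genes that were higher (Mt1, Mt2, Prdx6, Nfe2l2 and Gstm1; 3.61% of all genes) and 1 that was lower (Keap1; 3.97%). In the striatum 4 genes passed (Nfe2l2 and Prdx6 higher, Sod3 and Gpx3 lower; 10.1% of all genes), in the cortex 2 (Sod2 higher, Sod3 lower; 20%) and in the cerebellum 5 (Mt1, Mt2, Prdx1 and Sod1 higher, Slc7a11 lower; 11.9%). Outside the SN the shares were near those of all genes or below them. For the fits with 1 mouse left out, or with the library of E29, the share of all genes was not counted. Single mice moved the smaller counts: the striatum count was 2 without M16, M23, S1 or S3 and 0 with the library of E29, the cortex count was 6 without S4 and 4 without E27 or M16, and the cerebellum count was 9 without M16, while the SN count was 5 without S3.

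For exercise after MPTP (MPTP + EX against MPTP), 0.0151% of all genes passed the adjusted threshold in the striatum, 0.0154% in the cerebellum and 0 in the SN and cortex. The unadjusted counts were 1 gene in the SN (Gpx3 higher; 7.3% of all genes), 3 in the striatum (Txn1 and Srxn1 higher, Gstp1 lower; 10.2%), 2 in the cortex (Srxn1 higher, Hmox1 lower; 5.73%) and 1 in the cerebellum (Msra higher; 5.78%). The medians of the 35 genes were -0.01, 0.01, 0.00 and -0.01 on the log2 scale in the 4 regions, against 0.01, 0.00, 0.00 and 0.00 for all genes. Here too 1 mouse could decide a count, and the share of all genes in these further fits was not counted. The SN count was 0 without E28 or M23 and 2 without E26 or M21, the striatum count was 6 without M6 and 1 (Txn1) with the library of E29, the cortex count was 1 without E29 or M23 and 4 without M6, and the cerebellum count was 7 without M6 and 0 without E29, M21 or M23. Both comparisons use the same 4 MPTP mice of a region, so that their values for a gene are not independent of each other.

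**Figure D3:**
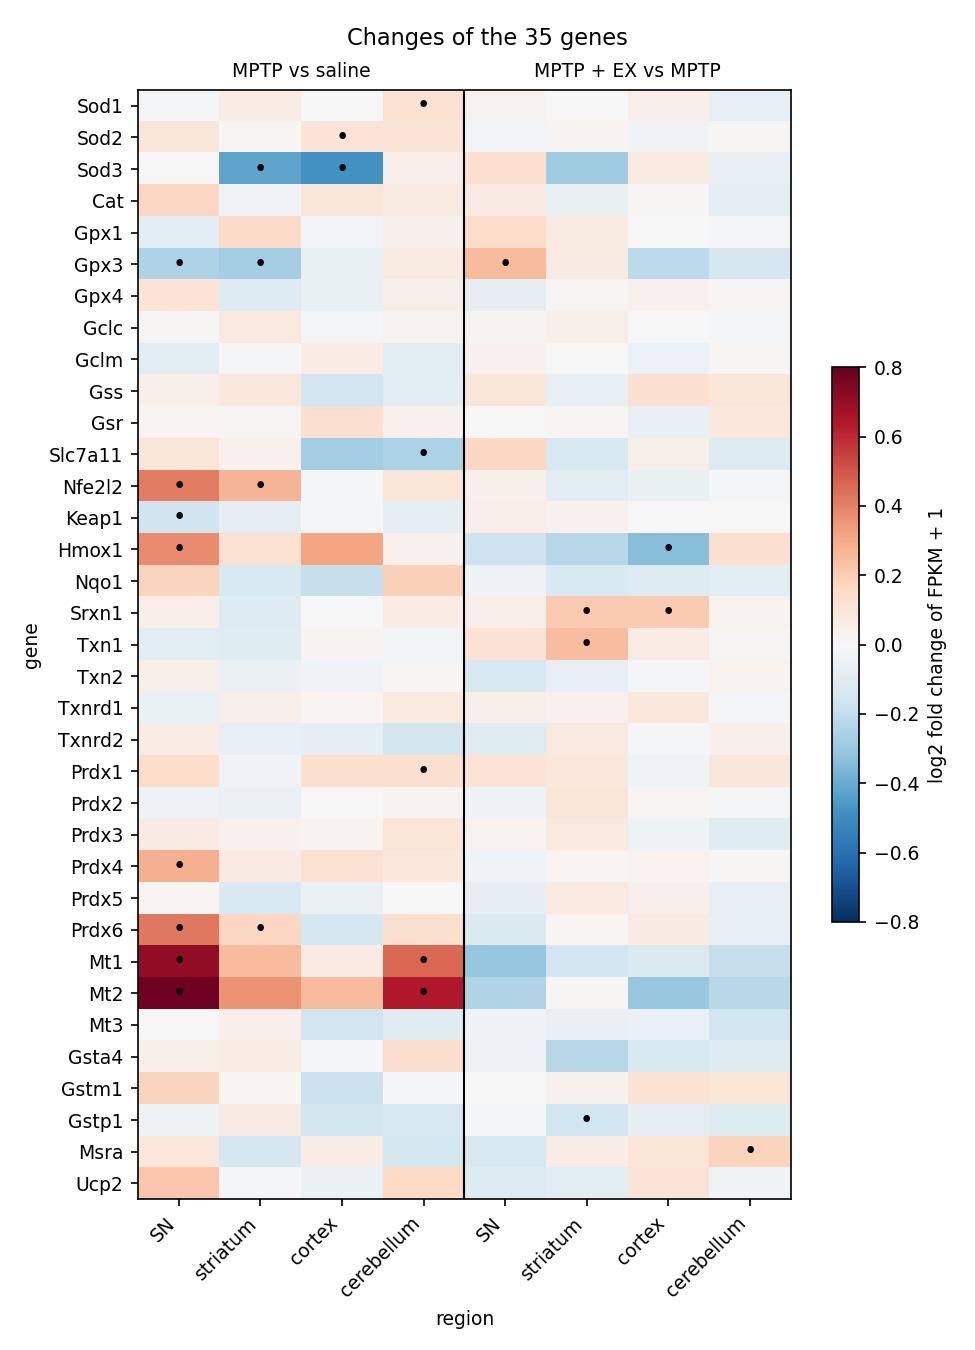
Log2 fold change of FPKM + 1 for the 35 genes (rows) in 4 regions, for MPTP against saline (left) and MPTP + EX against MPTP (right). Red is higher and blue lower in the first group, and dots mark an unadjusted p under 0.05, of which 19 lie on the left and 7 on the right; none passed after adjustment.

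Mt1 and Mt2, which neighbour each other in the mouse genome together with Mt3, had the largest differences with MPTP. In the SN, Mt1 was 449, 553, 419.7 and 610.0 FPKM in the saline mice S1 to S4, and 787, 961, 877 and 688 in the MPTP mice M16, M21, M23 and M6. Every MPTP mouse lay above every saline mouse. The means were 828 ± 117 and 508 ± 88.9 (SD, n = 4 each), and the log2 fold change was 0.71 (SE 0.156, unadjusted p = 0.000594, limma adjusted p = 0.0703), which ranked 114th of all genes by p. Mt2 was 273, 295, 229.9 and 344 FPKM in the saline mice and 471, 567, 559.5 and 369 in the MPTP mice. The groups did not overlap, the means were 491.5 ± 92.8 and 285 ± 47.4, and the log2 fold change was 0.78 (SE 0.214, limma adjusted p = 0.163). Mt3 was 847 ± 115 FPKM with MPTP and 846 ± 142 with saline, and its log2 difference of 0.01 had an SE of 0.148.

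Whether these genes passed depended on the setting. Without mouse E29, which entered the SN fit only through the shared estimate of spread, Mt1 (adjusted p = 0.0223), Mt2 (adjusted p = 0.0381) and Prdx6 (adjusted p = 0.0181) passed in limma, and without saline mouse S4 Mt1 did (adjusted p = 0.0487). In 1 fit of all 4 regions with the mouse as a random replicate block the limma adjusted p was 0.00616 for Mt1, 0.0166 for Mt2 and 0.00274 for Prdx6. Over all 20 alternatives the adjusted p ranged from 0.00616 to 0.221 for Mt1, from 0.0166 to 0.385 for Mt2 and from 0.00274 to 0.330 for Prdx6. The number of all genes past adjustment moved as well. It was 86 in the main fit and 44 to 161 with 1 mouse left out.

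After exercise, Mt1 in the SN was 775, 714, 692 and 502 FPKM in mice E26 to E29, and Mt2 was 487.5, 552, 403 and 259.7. The first 3 mice lay within the MPTP range for both genes, and E29 lay within the saline range for both. Against MPTP the log2 fold changes were -0.31 for Mt1 (SE 0.156, limma adjusted p = 0.714) and -0.24 for Mt2 (SE 0.214, adjusted p = 0.861), and without E29 that of Mt2 was -0.02. Mt3 was 853, 1021, 743 and 693 FPKM.

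In the cerebellum, Mt1 was 471, 466, 339 and 401 FPKM in the saline mice, 513, 649, 729 and 440.2 in the MPTP mice M16, M21, M23 and M6, and 542, 504, 461 and 502 in the MPTP + EX mice. Mt2 was 315, 282.5, 214.5 and 260.2 FPKM with saline, 382, 473, 571 and 284 with MPTP and 398, 346, 314 and 367 with MPTP + EX. In both genes 3 MPTP mice lay above all saline mice and M6 lay within the saline range. With MPTP the log2 fold changes were 0.46 for Mt1 (SE 0.139, limma adjusted p = 0.268) and 0.64 for Mt2 (SE 0.172, limma adjusted p = 0.255), and with exercise they were -0.19 and -0.22 (adjusted p = 0.898 and 0.901). Mt3 was 527 ± 64.4 FPKM with saline, 500.0 ± 118 with MPTP and 440.4 ± 34.3 with MPTP + EX.

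The striatum and cortex had smaller differences. In the striatum, Mt1 was 407, 414, 309.7 and 368.5 FPKM with saline, 484, 493, 489 and 336 with MPTP (M16, M21, M23 and M6), and 378, 468 and 361 with MPTP + EX, and Mt2 was 184, 167, 143 and 171 with saline, 240.2, 243, 257 and 135 with MPTP, and 190.5, 239.6 and 214 with MPTP + EX. Mouse M6 lay far below the other 3 MPTP mice for both. The log2 fold changes with MPTP were 0.26 (SE 0.135, limma adjusted p = 0.522) and 0.36 (SE 0.171, limma adjusted p = 0.505), and without M6 they were 0.39 and 0.57. In the cortex, Mt1 was 352, 385, 296 and 266 FPKM with saline, 319, 343, 449 and 261 with MPTP and 313, 265.5, 322 and 348.5 with MPTP + EX, and Mt2 was 176, 152.5, 149.8 and 126 with saline, 157, 194, 249 and 136 with MPTP and 146, 134, 159 and 142 with MPTP + EX. The groups overlapped, with log2 fold changes of 0.07 and 0.25 (SE 0.147 each, adjusted p = 0.831 and 0.344) for MPTP. Mt3 did not differ beyond its spread in either region: with saline, MPTP and MPTP + EX it was 748 ± 73.6, 774 ± 122 and 737 ± 26.7 FPKM in the striatum and 713 ± 39.1, 651 ± 123 and 620.1 ± 65.4 in the cortex.

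**Figure D4:**
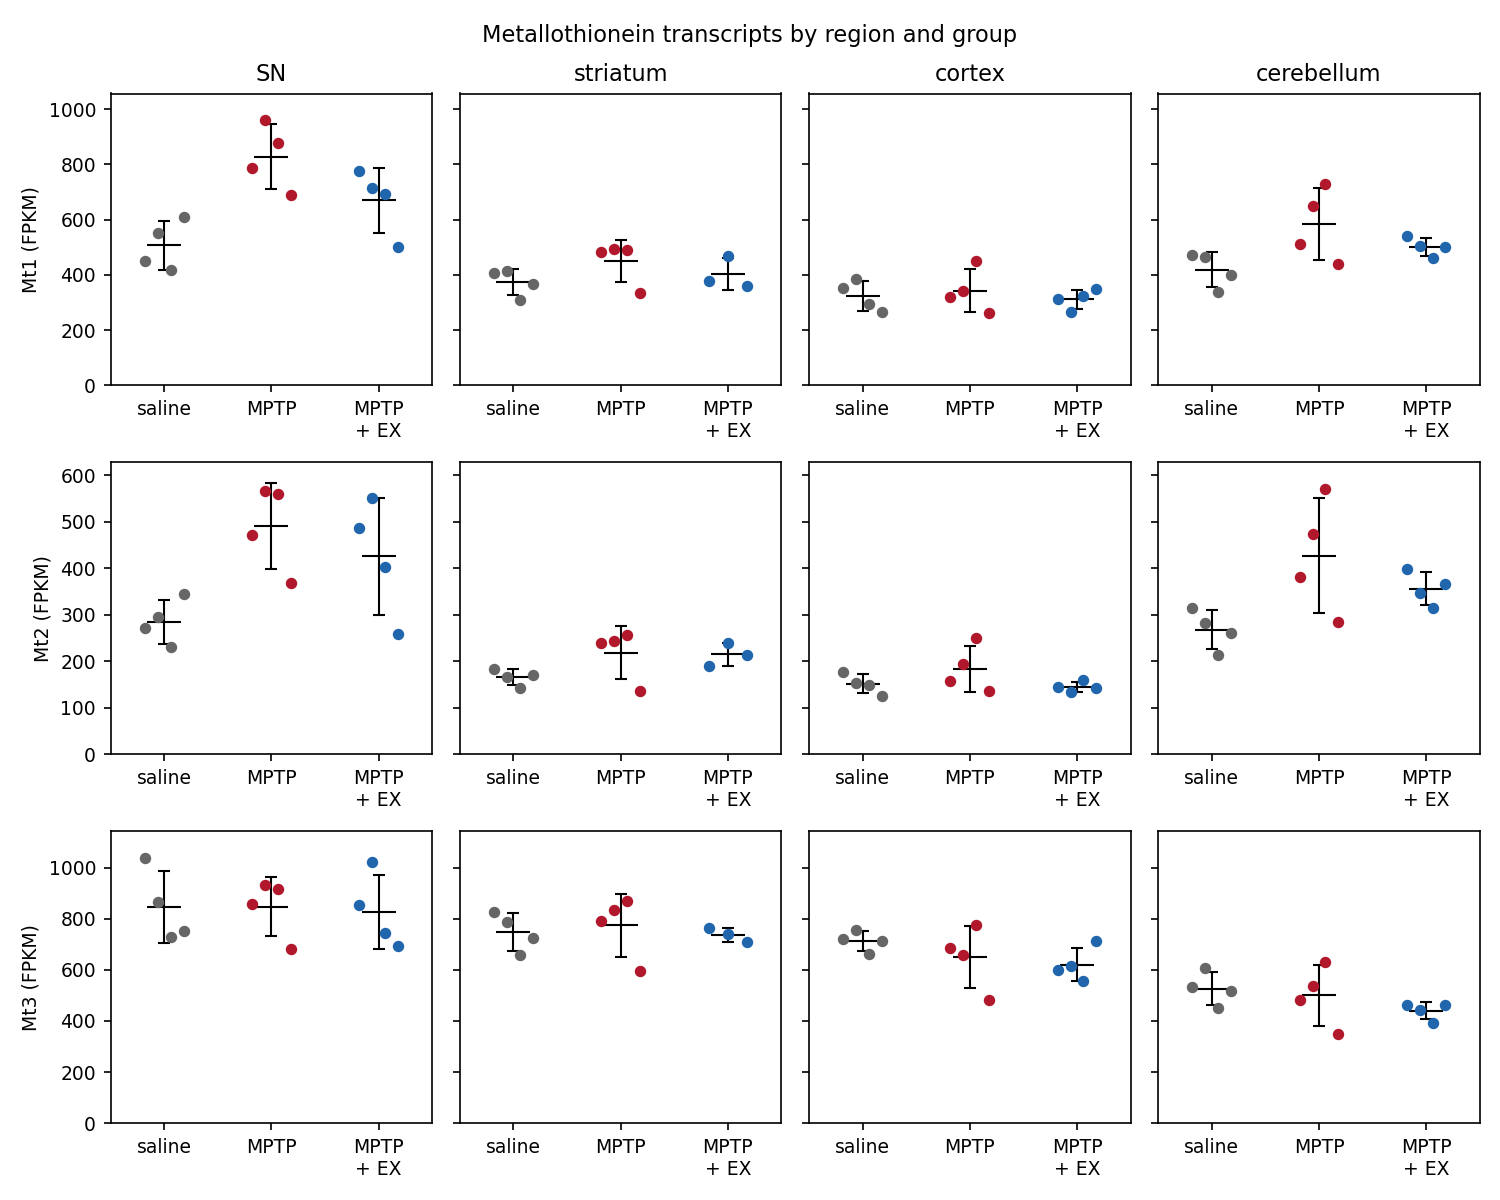
FPKM of Mt1, Mt2 and Mt3 in each library (points), with mean and SD (bars), by region and group; the striatum library of mouse E29 is left out, so that MPTP + EX has 3 points there. In the SN all 4 MPTP points for Mt1 (688 to 961) lie above all saline points (419.7 to 610.0), and in each region the lowest MPTP point is mouse M6.

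Mt1 and Mt2 went together from mouse to mouse. Across the libraries of a region, Pearson's r was 0.952 in the SN (Spearman's rho 0.965), 0.985 in the cerebellum (rho 0.972), 0.872 in the striatum (rho 0.827) and 0.823 in the cortex (rho 0.755), over 12 libraries, or 11 in the striatum. The permutation p of r was 1e-05, 1e-05, 0.00082 and 0.00095 (two-sided, 100000 resamples, for which 1e-05 is the smallest p; adjusted over the 4 regions 2e-05, 2e-05, 0.00095 and 0.00095), and that of rho was 2e-05, 1e-05, 0.00291 and 0.00611 (adjusted 4e-05, 4e-05, 0.00388 and 0.00611). Without the 2 libraries farthest from the median of Mt1, r was 0.932, 0.962, 0.764 and 0.637, and after the group means were subtracted it was 0.915, 0.976, 0.898 and 0.860 in the same order.

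Among the peroxiredoxins, Prdx6, which also repairs oxidised membrane phospholipids, had the largest difference. In the SN it was 68.1, 78.4, 67.6 and 71.9 FPKM with saline, 95.1, 99.2, 87.0 and 103 with MPTP (M16, M21, M23 and M6), and 104.4, 87.5, 97.3 and 68.2 with MPTP + EX. The MPTP and saline groups did not overlap, and of the exercised mice only E29 fell within the saline range. The means were 96.1 ± 6.89 and 71.5 ± 4.99 FPKM with MPTP and saline, with a log2 fold change of 0.42 (SE 0.111, limma adjusted p = 0.136). The log2 fold changes with MPTP elsewhere were 0.17 (striatum), 0.13 (cerebellum) and -0.14 (cortex). Prdx6 has a near-identical copy in the mouse genome, Prdx6b, and reads from the 2 could be divided in ways the sources used here do not give. Prdx4, the peroxiredoxin of the endoplasmic reticulum, averaged 15.0 ± 2.42 FPKM in the SN of MPTP mice against 12.0 ± 1.05 in saline mice (log2 fold change 0.28, adjusted p = 0.410). Prdx1, a cytosolic peroxiredoxin, was 53.6, 47.8, 54.4 and 52.9 FPKM in the cerebellum of saline mice, 56.0, 54.9, 56.4 and 61.6 with MPTP and 64.0, 59.9, 59.3 and 60.6 with MPTP + EX. Each treated mouse lay above each saline mouse. The log2 fold change was 0.13 for MPTP (SE 0.0517, limma adjusted p = 0.351; 3.25% of all genes were higher without overlap) and 0.22 for MPTP + EX against saline (adjusted p = 0.151; 5.88%). Prdx2, Prdx3 and Prdx5 had log2 fold changes between -0.12 and 0.09 with MPTP in all regions.

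Of the NRF2 genes, Nfe2l2, which encodes NRF2 itself, was 10.2, 9.41, 8.35 and 8.65 FPKM in the SN of saline mice, 13.0, 12.9, 11.1 and 12.9 with MPTP, and 18.1, 11.5, 14.2 and 9.10 with MPTP + EX. All 4 MPTP mice lay above the saline mice (log2 fold change 0.41, SE 0.153, limma adjusted p = 0.332), and E29 again lay within the saline range. Its inhibitor Keap1 was 23.1 ± 1.75 FPKM with MPTP and 25.9 ± 0.684 with saline, without overlap (log2 fold change -0.16, SE 0.0693, adjusted p = 0.406). Hmox1, an NRF2 target that breaks down heme, was 3.19 to 4.87 FPKM with MPTP and 2.61 to 3.42 with saline in the SN (log2 fold change 0.38, SE 0.127, adjusted p = 0.266), groups that overlapped. Nqo1, a quinone reductase often read as a measure of NRF2 activity, averaged 5.90 ± 1.29 FPKM after MPTP against 5.06 ± 0.811 in saline mice (adjusted p = 0.746). Srxn1, which reduces overoxidised peroxiredoxins, did not differ with MPTP in the SN beyond its spread (41.0 ± 2.04 and 39.6 ± 4.18 FPKM).

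Srxn1 and Txn1, the cytosolic thioredoxin, had the lowest p of the exercise comparison. In the striatum Txn1 was 37.2, 37.4, 43.3 and 41.5 FPKM with MPTP, and 47.7, 44.0 and 50.9 in mice E26 to E28 with MPTP + EX, with saline mice between 39.3 and 47.2. The MPTP and MPTP + EX groups did not overlap, with a log2 fold change of 0.25 (SE 0.0784, limma adjusted p = 0.373). Srxn1 was 27.5, 32.1, 32.3 and 29.9 FPKM with MPTP and 33.3, 37.1 and 35.7 with MPTP + EX (log2 fold change 0.21, SE 0.0760, limma adjusted p = 0.418). Prdx2 was 171, 170.3, 161.5 and 155 FPKM with MPTP and 173, 182 and 173 with MPTP + EX (log2 fold change 0.10, adjusted p = 0.576), again without overlap. These 3 genes were all that were higher without overlap, 3 of 35 against 4.08% of all genes. With the library of E29 included, the log2 fold changes of Txn1, Srxn1 and Prdx2 were 0.50, 0.19 and 0.44, and the adjusted p was 0.550 for each. In the cortex, Srxn1 was 31.6, 31.8, 34.6 and 33.8 FPKM with MPTP and 38.5, 43.1, 36.6 and 34.9 with MPTP + EX, without overlap (log2 fold change 0.21, SE 0.0626, limma adjusted p = 0.657; 1.75% of all genes were higher without overlap). Its saline values there were 31.1 to 34.3 FPKM. Txn2, the mitochondrial thioredoxin, and the reductases Txnrd1 and Txnrd2 had log2 fold changes of -0.15 to 0.09 across all regions and both comparisons.

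**Figure D5:**
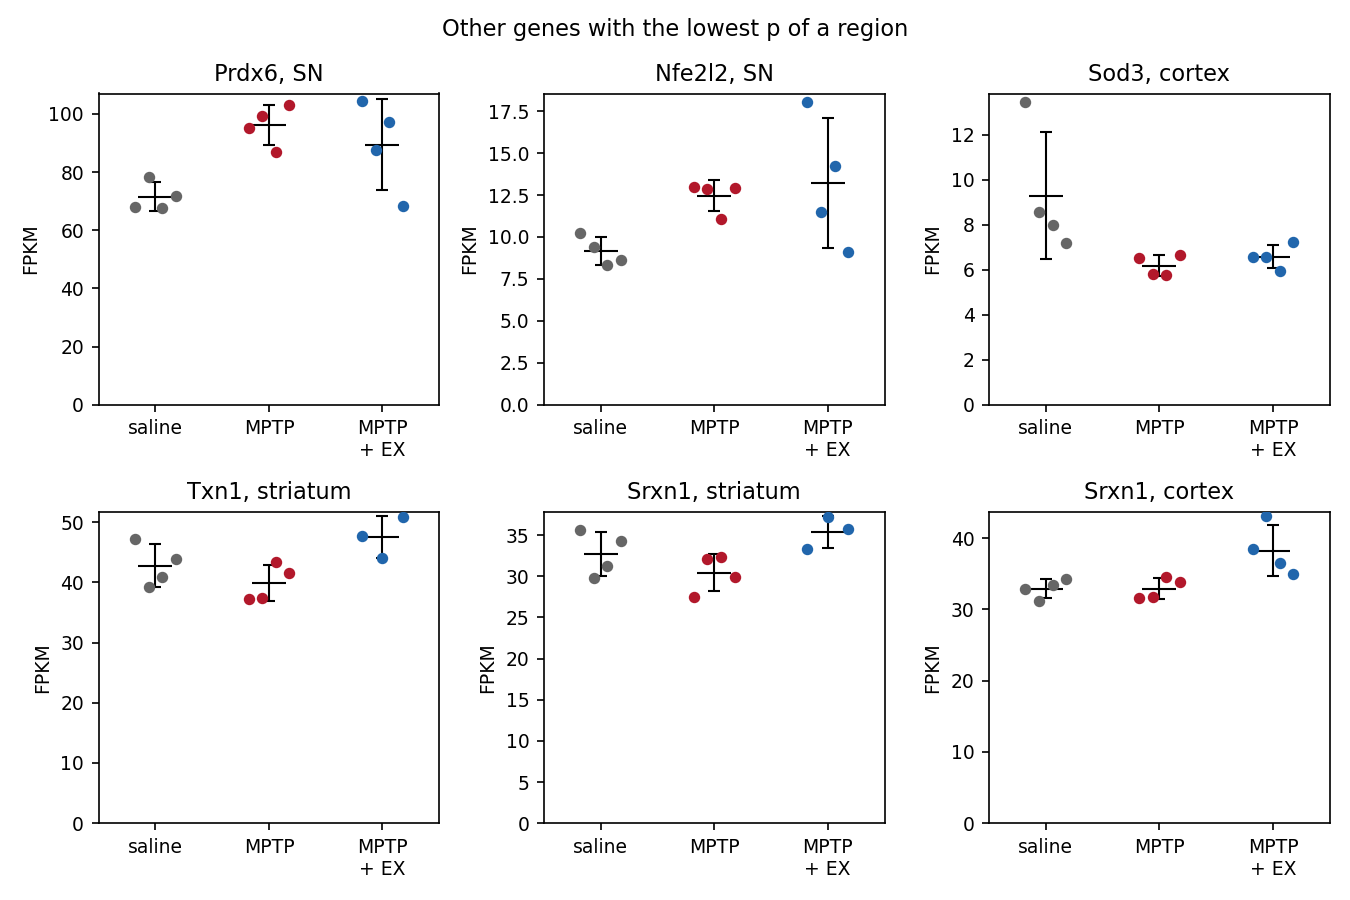
FPKM of Prdx6 and Nfe2l2 in the SN, Sod3 in the cortex, Txn1 and Srxn1 in the striatum and Srxn1 in the cortex, in each library (points) with mean and SD (bars), without the striatum library of mouse E29. MPTP points lie above saline points for Prdx6 (87.0 to 103 against 67.6 to 78.4) and Nfe2l2, and below them for Sod3, and MPTP + EX points lie above MPTP points for Txn1 and Srxn1.

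Sod3, the superoxide dismutase of the extracellular space, had the most negative log2 fold change with MPTP of the 35 genes over all regions. In the cortex it was 13.5, 8.57, 7.98 and 7.20 FPKM with saline, 6.51, 5.82, 5.78 and 6.64 with MPTP, and 6.56, 6.58, 5.96 and 7.24 with MPTP + EX. The MPTP group lay below the saline group (log2 fold change -0.49, SE 0.136, limma adjusted p = 0.0945, and 0.0706 to 0.223 over 20 alternatives; 6.57% of all genes were lower without overlap), and without saline mouse S1, the highest, the log2 fold change was -0.31. In the striatum it was 7.78, 8.50, 8.48 and 10.5 FPKM with saline, 5.70, 5.96, 8.37 and 5.43 with MPTP and 5.67, 5.73 and 3.77 with MPTP + EX. There the log2 fold change was -0.42 for MPTP (SE 0.141, limma adjusted p = 0.430), and -0.71 for MPTP + EX against saline (SE 0.153, adjusted p = 0.266), without overlap in the latter (4% of all genes were lower without overlap). With the library of E29, in which Sod3 was 13.8 FPKM, the latter was -0.38 (adjusted p = 0.635) and the groups overlapped. In the SN and cerebellum it was 7.70 ± 1.44 and 8.55 ± 1.74 FPKM with MPTP and 7.77 ± 1.97 and 8.16 ± 1.03 with saline. The cytosolic Sod1 and the mitochondrial Sod2 had log2 fold changes of -0.02 to 0.12 with MPTP in all regions. Catalase was 25.1 ± 2.81 FPKM with MPTP, 26.3 ± 2.59 with MPTP + EX and 22.2 ± 1.49 with saline in the SN (adjusted p = 0.513 and 0.233 against saline).

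Gpx3 was 21.3 ± 2.35 FPKM with MPTP in the SN, 25.6 ± 3.48 with saline and 25.6 ± 2.16 with MPTP + EX, and overlapped between groups (log2 fold change -0.25 with MPTP, SE 0.0997, limma adjusted p = 0.363, and 0.25 with exercise, adjusted p = 0.608). Gpx1, the cytosolic peroxidase, and Gpx4 had log2 fold changes of -0.10 to 0.15 with MPTP. With MPTP, the log2 fold changes of the glutathione synthesis and recycling genes Gclc, Gclm, Gss, Gsr and Slc7a11 lay between -0.08 and 0.10 in the SN, -0.01 and 0.08 in the striatum, -0.28 and 0.13 in the cortex, and -0.25 and 0.04 in the cerebellum. Slc7a11 was the lowest in both of the latter. In the cortex it was 6.72 ± 2.88 FPKM with saline and 5.12 ± 1.02 with MPTP, groups that overlapped (adjusted p = 0.439). In the cerebellum Slc7a11 was 3.18 ± 0.553 FPKM with saline, 2.49 ± 0.322 with MPTP and 2.24 ± 0.292 with MPTP + EX (log2 fold change -0.25 for MPTP, adjusted p = 0.406). It was also the gene with the widest spread between SN libraries, 3.79 to 12.5 FPKM in the MPTP + EX group and 4.14 to 10.1 with saline. The glutathione transferases Gsta4, Gstm1 and Gstp1 had log2 fold changes of -0.18 to 0.18 with MPTP. Gstp1 was 224.9 ± 18.6 FPKM with MPTP and 201.9 ± 6.22 with MPTP + EX in the striatum (log2 fold change -0.15, limma adjusted p = 0.455, and 0.27 with the library of E29, adjusted p = 0.604), and its near-identical neighbour Gstp2 makes its level uncertain. Msra was 20.5 ± 1.71 FPKM with MPTP and 23.2 ± 1.37 with MPTP + EX in the cerebellum (log2 fold change 0.18, adjusted p = 0.83). Ucp2 overlapped between groups in each region.

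Compared with saline, exercised mice had 0 of 35 genes past the adjusted threshold in each region (limma; 1.02% of all genes in the SN, 0.00756% in the striatum and 0 elsewhere). At an unadjusted p under 0.05 there were 6 genes in the SN, all higher (Nfe2l2, Prdx6, Cat, Mt1, Mt2 and Prdx1; 15.8% of all genes, 8.97% higher), 2 in the striatum (Prdx6 higher, Sod3 lower; 10.2%), 3 in the cortex (Srxn1 higher, Gstp1 and Sod3 lower; 17.1%) and 4 in the cerebellum (Prdx1 and Mt2 higher, Slc7a11 and Gstp1 lower; 16.9%). The groups of these 6 SN genes all overlapped. With 1 mouse left out, or with the library of E29, the share of all genes at the unadjusted threshold was not counted. The SN count was 10 without E29, of which Mt2, Nfe2l2 and Prdx6 passed adjustment (adjusted p = 0.0349, 0.0258 and 0.0191), and it was 2 without E26 or E28 and 3 without S3. Without E29, Srxn1 passed in the cortex (adjusted p = 0.0483), where the count was then 5, as it was without S1 or S4, and the striatum count was 5 without E26, 4 without E27 or M6, 1 without E28 or S3 and 1 (Mt2) with the library of E29. In the 4-region fit with the mouse as a random replicate block Prdx6 passed in the SN (adjusted p = 0.0267). The number of all genes past adjustment also moved with 1 mouse left out. It ranged from 55 to 538 in the SN (138 in the main fit) and from 0 to 433 in the cortex (0 in the main fit).

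Whether the response to MPTP differed between the 4 regions was tested in 1 fit of 47 libraries. None of the 35 genes passed (limma F test, adjusted p under 0.05; 0.604% of all genes), and at an unadjusted p under 0.05 there were 3 (12.5% of all genes): Prdx6 (unadjusted p = 0.000745, adjusted p = 0.0756), Sod3 (adjusted p = 0.385) and Mt1 (adjusted p = 0.397). With the mouse as a random replicate block Prdx6 passed (adjusted p = 0.0424), with the values by region given above. For exercise, no gene passed (0 of all genes) and none of the 35 had an unadjusted p under 0.05 (6.39% of all genes). With all 48 libraries 1 of the 35 genes had an unadjusted p under 0.05 in each of these tests. The share of all genes was not counted there.

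A further 102 genes of the same pathways were counted in the same way, and 94, 91, 88 and 88 of them had a mean above 1 FPKM in the SN, striatum, cortex and cerebellum. None passed adjustment with MPTP or with exercise in any region (limma). With MPTP, the genes at an unadjusted p under 0.05 numbered 6 higher and 1 lower in the SN (7 of 94, with 11.3% of all genes), 7 and 3 in the striatum (10 of 91, with 10.1%), 6 and 14 in the cortex (20 of 88, with 20%), and 8 and 2 in the cerebellum (10 of 88, with 11.9%). With exercise they numbered 5 higher and 2 lower (7 of 94, with 7.3% of all genes), 3 and 9 (12 of 91, with 10.2%), 3 and 1 (4 of 88, with 5.73%), and 1 and 4 (5 of 88, with 5.78%) in the same order. Txnip, which binds and inhibits thioredoxin, had the lowest p with MPTP in 3 regions. It was 10.4 to 16.7 FPKM with saline, 22.2 to 32.2 with MPTP and 10.7 to 30.3 with MPTP + EX in the SN, where its log2 fold change with MPTP was 0.92 (SE 0.253, limma adjusted p = 0.159). In the cerebellum it was 6.41 to 10.5 FPKM with saline, 16.5 to 21.7 with MPTP and 6.64 to 14.2 with MPTP + EX, so that the MPTP group lay above both others (log2 fold change 0.99, limma adjusted p = 0.179, and -0.73 with exercise, adjusted p = 0.671). In the striatum it was 9.81 to 13.3, 13.9 to 24.6 and 12.3 to 15.5 FPKM (0.66 with MPTP, limma adjusted p = 0.290). In the cortex the lowest p belonged to Cbs, cystathionine beta-synthase, which leads homocysteine towards cysteine. It was 12.4 to 15.3 FPKM with saline, 10.6 to 11.5 with MPTP and 12.5 to 14.9 with MPTP + EX (log2 fold change -0.32 with MPTP, limma adjusted p = 0.0679, and 0.33 with exercise, adjusted p = 0.526). Sepp1, which carries selenium, was 244 to 266 FPKM with MPTP and 204 to 233 with saline in the SN (log2 fold change 0.23, limma adjusted p = 0.349), and 93.6 to 114 against 83.2 to 90.6 in the cerebellum (0.25, adjusted p = 0.255). Cbr3, a carbonyl reductase, was 20.5 to 28.4 FPKM with saline, 29.2 to 35.9 with MPTP and 22.6 to 28.8 with MPTP + EX in the striatum (log2 fold change 0.38 with MPTP, limma adjusted p = 0.336, and -0.35 with exercise, adjusted p = 0.367). In these striatal values and in those of Txnip in the cerebellum and Cbs in the cortex, the MPTP group lay apart from both other groups, and the 2 comparisons share it. These genes were picked by their low p, and the share of all genes with this pattern was not counted. Mafg, a partner of NRF2 on DNA, was 30.1 to 32.9 FPKM with MPTP + EX and 25.3 to 28.3 with MPTP in the SN (log2 fold change 0.21, limma adjusted p = 0.421). Slc39a14, which imports zinc, iron and manganese, was 5.38 to 8.19 FPKM with MPTP + EX and 8.45 to 9.75 with MPTP in the cerebellum (log2 fold change -0.45, limma adjusted p = 0.671).

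The summed levels of 13 lists of cell type markers and response genes were set beside these values. Between MPTP and saline, the sums did not overlap for 3 lists in the SN (dopaminergic neurons lower, brain endothelium and clock genes higher), 1 in the striatum (clock genes higher), 3 in the cortex (choroid plexus and microglia lower, clock genes higher) and 2 in the cerebellum (clock genes, and heat shock and hypoxia genes, higher). Between MPTP + EX and MPTP, 2 lists in the SN (clock genes and neocortical excitatory neurons), 3 in the striatum (clock genes, medium spiny neurons and blood cells), 1 in the cortex and 1 in the cerebellum (clock genes in both) were lower without overlap. The 14 clock genes, which drive the daily rhythm of transcription, summed to 351 to 401 FPKM with MPTP, 293 to 337 with saline and 305 to 329.5 with MPTP + EX in the SN, and MPTP libraries lay above both other groups in all 4 regions. With MPTP, 12 of the 14 lay above 0 in the SN (median log2 fold change 0.28, 1 past adjustment), 11 in the striatum (0.20, 1 past adjustment) 12 in the cortex (0.13, 0 past adjustment) and 12 of the 13 tested in the cerebellum (0.13, 0 past adjustment). In the SN, 12 endothelial markers summed to 218 to 247 FPKM with MPTP, 179 to 207 with saline and 220.2 to 256 with MPTP + EX (10 of 12 above 0 with MPTP, median 0.09), and 11 of 12 oligodendrocyte markers lay above 0 (median 0.21, sums of 6378 to 8493 against 5429 to 6867 FPKM, which overlapped). In the SN with MPTP, 14 of 14 astrocyte markers lay above 0 (median log2 fold change 0.19, 0 past adjustment, all genes 0.02), with a summed level of 2597 to 3175 FPKM against 2281 to 2650 with saline, which overlapped. Of 15 glucocorticoid targets, genes that the stress hormone receptor switches on, 14 lay above 0 in the SN (median 0.42, 1 past adjustment), 14 (0.36) for striatum, 12 (0.14) for cortex and 15 (0.24) for cerebellum, and their summed level in the SN was 427 to 615 FPKM with MPTP, 303 to 442 with saline and 348 to 624.5 with MPTP + EX. In the cerebellum, by contrast, 9 of 14 astrocyte markers lay above 0 (median 0.03), and their sums were 2257 to 2512 FPKM with MPTP and 2109 to 2374 with saline. In the cortex, beside Sod3, 13 of 14 astrocyte markers (median -0.17), 14 of 14 microglia markers (-0.21) and 11 of 12 endothelial markers (-0.24) lay below 0, as did 11 of 12 oligodendrocyte markers (-0.20), with microglia sums of 274 to 296 FPKM with MPTP and 315 to 378 with saline. Of all genes, 49% lay above 0 with MPTP in the cortex, 52.3% in the striatum and 55.5% in the cerebellum. The 12 choroid plexus markers, of which 2 were abundant enough to be tested in the cortex, summed there to 483, 23.3, 83.6 and 48.3 FPKM in the saline mice S1 to S4, 5.72 to 20.1 with MPTP and 7.22 to 39.0 with MPTP + EX. Mouse S1 was thus the highest for these markers and for Sod3. In the striatum, their sums were 58.5, 119.5, 1631 and 2556 FPKM in S1 to S4, 39.5 to 867 with MPTP and 54.0 to 752 with MPTP + EX, and all 11 that were tested lay below 0 with MPTP (median -0.87, 0 past adjustment). S4 was the highest saline mouse and M23 the highest MPTP mouse for both these sums and Sod3. Choroid plexus sums and Sod3 did not go together in every library. In the striatum, E26 had a sum of 752 FPKM with Sod3 at 5.67, against 54.0 and 5.73 in E27. In the SN, S4 had 464.5 and 6.26 FPKM, and S1 had 10.7 and 10.3. In the striatum, markers of neocortical excitatory neurons summed to 53.1 to 193 FPKM with MPTP, 89.4 to 334 with saline and 170.2 to 442.5 with MPTP + EX, and those of medium spiny neurons to 4173 to 5065, 3576 to 4294 and 3346 to 4138. The part of these lists in the values of the 35 genes was not tested.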

How the data were processed

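RNA-seq was carried out on 48 libraries. The authors deposited 1 table of FPKM values. For its making, the methods mention alignment with TopHat2 and quantification by Cufflinks and RSEM, whereas the submitters' processing notes name HISAT2 (2.1), HTSeq (0.11) and the build mm9, and the 2 accounts could not be reconciled here. Gene names that had become calendar dates (27, or 0.209 to 0.329% of each library's FPKM) were dropped. In each region log2(FPKM + 1) was fitted with limma 3.58.1 (R 4.3.3; intensity trend, the 3 groups in 1 fit) over genes with a mean above 1 FPKM, with Benjamini-Hochberg adjustment over them. Fold changes are on this scale, which understates those of low genes. The script was tested on simulated data. FPKM carry no counts, so that no counting interval was given. All 35 genes passed the filter in all regions. Mice came from the column names, since GEO's labels number replicates without naming animals. Over 12205 genes, 38 of 69 pairs of regions of 1 mouse deviated together (r above 0.1, median 0.116). Between different mice of a group, 18 of 207 pairs of regions did (median -0.045). Deviations were taken from the group mean, so that these medians are not independent of each other. P-values of the treatment comparisons within a region measure the spread between mice. Fits across regions treated the libraries of 1 mouse as independent, except where the mouse is named as a block. Values in each library are given for the metallothioneins and for the up to 3 genes of lowest p without overlap, per region, for MPTP against saline and MPTP + EX against MPTP; Nfe2l2 in the SN and Sod3 in the striatum were added after their values were seen. Of the other pathway genes, those named had among the lowest p of their lists. The members and lists were chosen with earlier results of these data known.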

Additional observations from a re-analysis of the deposited data

Results flagged for a closer look

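Groups of 4 libraries were examined for Mt1, Mt2 and Mt3 in each region and for Prdx6 in the SN. They were also examined for Txn1, Srxn1 and Prdx2 in the striatum, Sod3 and Srxn1 in the cortex and Prdx1 in the cerebellum. Other values given above, such as those of Nfe2l2 and Slc7a11 in the SN, were not examined. Of these 51 groups, 2 held a library far from the others by Dixon's criterion (a gap that takes up most of the group's range). By chance about 1 in 20 would. Mt1 in the striatum of MPTP mouse M6 was 336.3 FPKM, and the other 3 MPTP mice had 484.2 to 492.7. Mt2 in the same library was 135.2 FPKM, and the other 3 had 240.2 to 257. Since Mt1 and Mt2 went together across libraries, these are not separate observations.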

How the results depend on the processing

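No paired analysis was possible for the treatment comparisons because the groups are different mice. Of 380 counts of genes past adjustment under alternatives (20 comparisons), 372 stayed within 1.5 times the value reported and 8 moved. Of the 380, 248 belonged to treatment comparisons, where the value reported was 0. A count that stayed was there 0 again, the lowest value it could take. With MPTP in the SN, 0 genes became 1 in a fit of 2 groups (Prdx6, adjusted p = 0.0328) and 3 in 1 fit over 4 regions with the mouse as a random replicate block, and leaving out 1 mouse gave 0 to 3. For MPTP + EX against saline, the SN gave 1 with that block and 0 to 3 with 1 mouse left out, and the cortex 0 to 1. The regional difference in the response to MPTP gave 1 gene with the block. The fit over 4 regions with the block changed no other count of treatment calls. It also pooled the spread over the regions, and the part of the block alone in these counts was not tested. With the mouse as a replicate block the counts between saline regions moved by less than 1.5 times (26 in place of 27 genes for the SN against the striatum). Signs near 0 turned: Mt3 in the SN was -0.015 with MPTP under median scaling and 0.037 with exercise under quantile normalization, and in the striatum with exercise Mt1 was 0.42 and Mt3 0.64 with all 12 libraries and Mt2 -0.0036 with the block. With 1 mouse left out, the log2 fold change ranged from -0.061 to 0.11 (MPTP) and -0.15 to 0.041 (exercise) for Mt3 in the SN, from -0.022 to 0.16 and -0.18 to 0.0052 for Mt3 in the striatum, from -0.21 to 0.10 for Mt2 in the striatum (exercise), from -0.071 to 0.19 and -0.24 to 0.024 for Mt1 in the cortex, from -0.19 to 0.038 for Mt3 in the cortex (exercise) and from -0.22 to 0.062 for Mt3 in the cerebellum (MPTP). The cause was not tested. The settings tried were 0.1 as the pseudocount, no filter, a mean above 5 FPKM, median scaling, quantile normalization, no trend, fits of 2 groups, all 12 striatum libraries and the block. With 4 mice a group, SEs of 0.11 to 0.214 for the metallothioneins limit what could be detected.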

Other observations

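Mouse M6 had the lowest Mt1, Mt2 and Mt3 of the 4 MPTP mice in all 4 regions. Its Mt3 was 681 FPKM in the SN (others 860 to 933), 597 in the striatum (791 to 871), 483 in the cortex (659 to 777) and 349 in the cerebellum (483 to 632). Of the 35 genes, M6 held the lowest value of the 4 for 10, 14, 14 and 12 in these regions, and for 23 to 28.3% of all genes. In the striatum and cortex it was the mouse most often lowest for the 35 genes (others 3 to 12 and 6 to 8). Its summed FPKM was also the lowest of the MPTP mice in each region, as in the cortex (350825, others 361272 to 364383).

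In the SN, mouse E29 held the lowest value of the MPTP + EX group for 18 of the 35 genes and for 32.3% of all genes, and mouse E26 the highest for 20 and for 28.7% of all genes. Slc7a11, the cystine transporter, was 3.79 FPKM in E29 and 11.2 to 12.5 in the other 3 mice. In the cortex of the saline mice, S1 was highest for 20 of the 35 genes and S4 lowest for 21 (32.7% and 27.6% of all genes), with Slc7a11 at 10.8 and 4.37 FPKM and Nfe2l2 at 7.79 and 3.92.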
